A study of Mus musculus with 28 samples.

Results

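miR-210-3p (listed as mmu-miR-210-3p) is 1 of the 569 miRNA rows measured in this study. It was chosen by its name and not by a cut on its values, with earlier results of these data known. It had a value on all 28 arrays. The arrays measured mature miRNAs in cartilage or in the bone just beneath it (subchondral bone), laser-microdissected from the medial tibial plateau of decalcified knees. Male C57BL6 mice had been operated on in both knees at 10 to 12 weeks of age. The titles of the bone samples mark the mice WT, for wild type. Destabilization of the medial meniscus (DMM), an osteoarthritis model, cuts the ligament that anchors the medial meniscus to the tibia. In the sham operation the same ligament was exposed and left intact. Joints were taken 1 or 6 weeks after surgery, so that tissue, operation and week define 8 groups. Cartilage was measured in 4 groups of 3 arrays, with RNA pooled from 3 mice on each array. Bone was measured in 4 groups of 4 arrays, with 1 mouse on each. The same mice gave cartilage and bone, but the labels do not tie pools to single mice.

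miR-210 is the miRNA most widely known as a target of hypoxia-inducible factor (HIF), the transcription factor that is stabilized when cells lack oxygen. Its mature 3p strand is loaded into Argonaute, pairs with target mRNAs through its seed and lowers them. Known targets include mRNAs for the iron-sulfur cluster scaffold protein ISCU, through which miR-210 lowers mitochondrial respiration, and for the receptor ligand ephrin-A3, both described first in human cells. Articular cartilage has no blood vessels, and its chondrocytes live at low oxygen with active HIF. Subchondral bone and its marrow spaces are supplied by vessels.

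The mature strand, its partner strand and the hairpin they are cut from are shown because every value below is read from the first of them. They come from RefSeq on GRCm38.p6, where the hairpin lies on the minus strand of chromosome 7 at chr7:141221384-141221493, the 3p strand at chr7:141221407-141221428 and the 5p strand at chr7:141221445-141221466. Capitals mark the seed, bases 2 to 8 from the 5′ end, in the mature strands, and both arms in the hairpin.
miR-210-3p: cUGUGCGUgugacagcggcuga
miR-210-5p: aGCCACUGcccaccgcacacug
mir-210 hairpin: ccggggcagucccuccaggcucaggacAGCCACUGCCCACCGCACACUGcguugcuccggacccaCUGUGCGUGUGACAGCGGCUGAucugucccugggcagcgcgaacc
The table of this study had no row used here for miR-210-5p, so all values are of the 3p strand. No gene of the RefSeq annotation overlapped the hairpin, and its nearest neighbours were the protein-coding genes Rassf7 at lower and Gm51460 at higher coordinates. Of the 569 rows, 466 matched a RefSeq mature miRNA by name. Among these matched rows, 0 besides miR-210-3p carried its seed, and the seed of unmatched rows was not known. At 63.64% GC the strand was richer in G and C than the median of the matched rows, 54.55%, and 89 rows were richer still.

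Of the 569 rows, 438 had a value on every cartilage array, 490 on every bone array and 359 on both. Values are log2 signals as deposited, so a difference of 1 is a factor of 2. The median signal of an array lay between 6.26 and 6.32 for cartilage and between 6.17 and 6.39 for bone. Arrays of 1 group correlated at 0.967 to 0.993 in cartilage, and less tightly in bone, at 0.809 to 0.993, across miRNAs. A further label field calls the cartilage samples bone, whereas their source field says cartilage. miR-140-3p, the defining miRNA of chondrocytes, stood at 13.41 in them on average and at 9.34 in bone, and the source field was used. All 4 listed cartilage-enriched miRNAs were measured in cartilage and 3 of 4 in bone. Of the blood cell miRNAs, 2 of 5 erythroid and 3 of 5 leukocyte members were measured in cartilage, against 4 and 5 in bone.

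In cartilage miR-210-3p was among the brightest miRNAs of every array. Sham cartilage at 1 week had log2 signals of 10.14, 10.06 and 10.21. DMM cartilage at 1 week had 9.89, 9.86 and 9.65. All 3 DMM pools were below all 3 sham pools, and the gap between the nearest pools was 0.163. At 6 weeks sham cartilage had 10.22, 10.31 and 10.45. DMM cartilage of that week had 9.86, 9.81 and 9.56. The groups again did not overlap, with a gap of 0.361. Every DMM array was below every sham array for 23.3% of all miRNAs at 1 week and 18% at 6 weeks. At both weeks it was so for 12.8%. Pooled over both weeks, each of the 6 DMM arrays was below each of the 6 sham arrays for miR-210-3p. Ranked from the brightest of 438 miRNAs, miR-210-3p stood between 27th and 31st on the sham arrays and between 37th and 42nd on the DMM arrays. The ranks need no scaling between arrays and did not overlap either. The share of all miRNAs apart in rank, or apart over the pooled weeks, was not counted. The level of miR-210-3p was 3.28 to 4.13 log2 units above the array median.

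In bone the same miRNA sat in the lower part of the table and varied widely between mice of 1 group. Sham bone at 1 week had 5.27, 6.23, 5.81 and 6.59. DMM bone at 1 week had 6.88, 5.80, 5.66 and 5.73. The sham range took in 3 of the 4 DMM mice, and the other was above all sham mice. Sham bone at 6 weeks had 6.13, 6.14, 5.10 and 5.70. DMM bone at 6 weeks had 5.72, 6.06, 5.26 and 5.37. All 4 DMM values lay within the sham range. Of 490 miRNAs its rank ran from 161st to 461st, and its level relative to the array median from -1.24 to 0.61. Its mean level in bone, 5.84, was 316th of 490 and below the level of the median row, 6.21. The signals of 5.10, 5.26, 5.27 and 5.37 lay below the 10th percentile of row levels in bone, 5.38. No detection information was used, so the distance of these signals from background is not known.

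**Figure D1:**
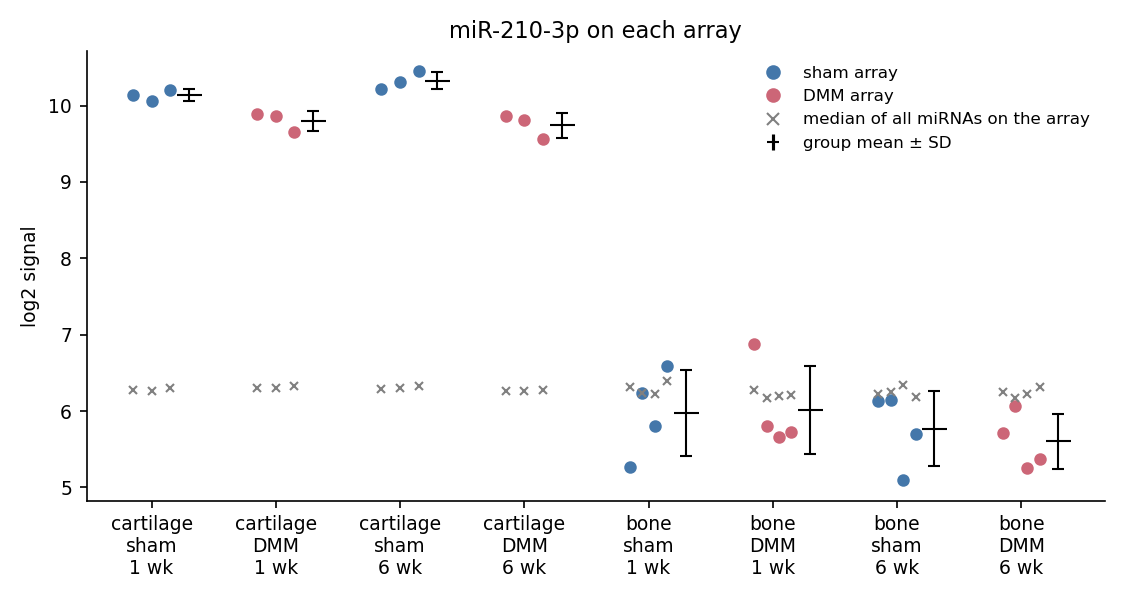
The log2 signal of miR-210-3p is plotted for each array in the 8 groups of tissue, operation and week, with the mean ± SD of each group and the median of all miRNAs on each array. All 12 cartilage arrays lie between 9.56 and 10.45, with DMM below sham at both weeks, and the 16 bone arrays lie between 5.10 and 6.88, around or below their array medians.

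The spread within groups also differed by tissue. In cartilage the pooled within-group SD of miR-210-3p was 0.126, below the median of all rows, 0.172, and 105th smallest of 438. In bone it was 0.507, above the median of 0.334, and 398th of 490. Cartilage arrays averaged 3 mice each and bone arrays held 1, so pooling and tissue cannot be told apart here. Because the signal comes from whole dissected tissue, fewer cells of a type and less miR-210-3p per cell cannot be told apart either.

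Set side by side, the mean level was 10.00 ± 0.27 (SD, n = 12) in cartilage and 5.84 ± 0.49 (SD, n = 16) in bone. That is a difference of 4.16 on the log2 scale, or 17.9-fold, and the lowest cartilage array was 2.68 above the highest bone array. It was the largest difference in favour of cartilage among the 359 miRNAs with a value on every array, whose median difference was -0.06. Next came the chondrocyte miRNAs miR-140-3p with 4.07 and miR-140-5p with 3.74, made from a hairpin inside the Wwp2 gene. miR-455-3p, whose hairpin lies in the Col27a1 collagen gene, had 2.95 and rank 5. Group by group, miR-210-3p ranked first in sham at 1 week (4.16), in sham at 6 weeks (4.56) and after DMM at 6 weeks (4.14). After DMM at 1 week it had 3.78 and ranked second to miR-140-3p (3.95). The difference was 4.51 after centring each array on its 75th percentile, 4.28 after centring on the median and 4.06 after quantile normalization of the 28 arrays together, and it ranked first under each of these settings, which were chosen after seeing the data. These levels are a description without a test, because the complete rows differed by tissue and nothing shows that both tissues were normalized together. The fold also rests on bone signals from the lower part of the table.

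**Figure D2:**
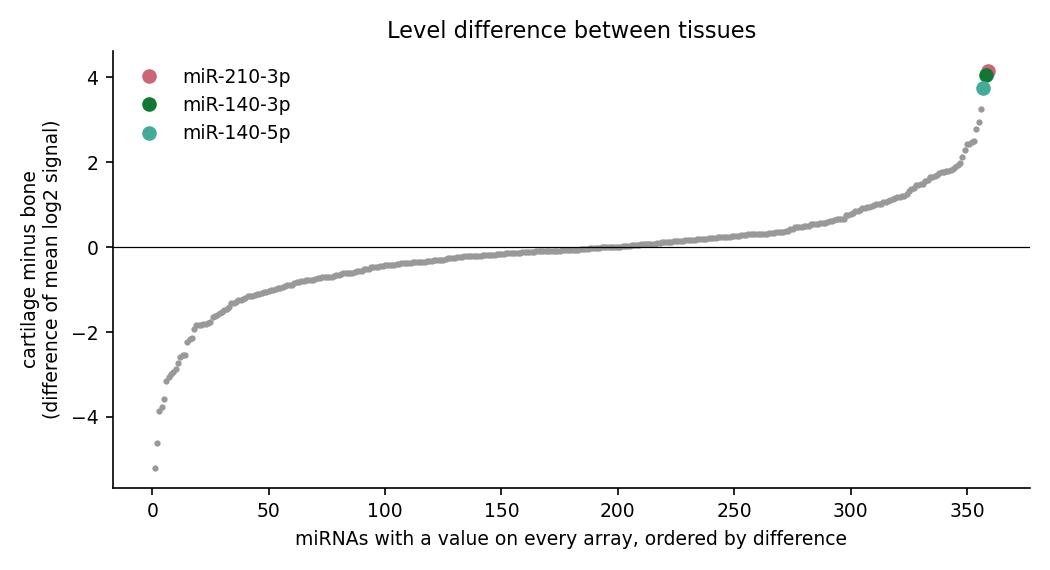
The difference of mean log2 signal between cartilage (n = 12 arrays) and bone (n = 16) is plotted for the 359 miRNAs with a value on every array, in rising order. miR-210-3p is the rightmost point at 4.16, beside miR-140-3p at 4.07 and miR-140-5p at 3.74.

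One week after DMM, cartilage held 79.4% of the sham signal of miR-210-3p. Group means were 10.14 ± 0.08 (SD, n = 3) after sham and 9.80 ± 0.13 (SD, n = 3) after DMM. The log2 fold change was -0.33 ± 0.11 (SE) with a 95% confidence interval of -0.58 to -0.08, and its limma adjusted p of 0.0490 was just inside the threshold of 0.05. Such calls were common in this comparison. Of 438 miRNAs 122 passed, or 27.9%, 69 higher and 53 lower (12.1%), and 79 miRNAs had a more negative change. Every DMM array was below every sham array for 23.3% of all miRNAs. The call was lost, at values of -0.26 to -0.37, without sham replicate 1 (adjusted p = 0.111), 2 (0.0609) or 3 (0.149) or DMM replicate 2 (0.0682) or 3 (0.195) of that week. It was also lost, at an unaltered -0.33, without sham replicate 2 (0.0644) or DMM replicate 1 (0.0553) or 2 (0.0606) of week 6. A replicate block (adjusted p = 0.0939), a trend and robust prior (0.0574), dropping rows dimmer than the median row (0.0636), a covariate for the main axis of variation between bone arrays (0.743) and a fit of all 28 arrays (0.644) ended it too, so that it held in 8 of 21 alternatives. The covariate, counted among the 21, did not overlap between sham and DMM cartilage at either week. Its fit therefore cannot separate the covariate from the operation. Quantile normalization gave -0.66 (adjusted p = 0.00362), beside -0.62 at 6 weeks in the same setting. In that setting the 3 DMM arrays have 1 identical value, since miR-210-3p ranked 41st on each. The 122 calls became 60 higher and 75 lower there. With arrays centred on their 75th percentile there were 56 higher and 86 lower.

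At 6 weeks after DMM the level was 66.5% of sham. Means were 9.74 ± 0.16 (SD, n = 3) after DMM against 10.33 ± 0.12 (SD, n = 3). The log2 fold change was -0.59 ± 0.11 (SE), with a 95% confidence interval of -0.84 to -0.34 and a limma adjusted p of 0.00662. In this comparison 74 of 438 miRNAs passed, or 16.9%, and 7.31% passed as lower. Only 11 of the 438 had a more negative change, and 15 had a smaller p. For 18% of all miRNAs every DMM array was below every sham array. miR-210-3p passed in all 12 fits that left out 1 array, with values of -0.65 to -0.50, and in 19 of 21 alternatives in all. The call was lost with that covariate (-0.72, adjusted p = 0.453) and in a fit of all 28 arrays (-0.59, 0.363).

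Averaged over both weeks, the DMM effect in cartilage was -0.46 ± 0.08 (SE), with a 95% confidence interval of -0.64 to -0.28 and a limma adjusted p of 0.00108. It passed in 18 of 20 alternatives, and not with the covariate (adjusted p = 0.631) or in the fit of all 28 arrays (0.157). By the same measure 198 of 438 miRNAs passed, or 45.2%, and 24% were lower. A two-sided exact permutation test of miR-210-3p alone gave p = 0.1 at each week, the smallest that 3 against 3 allows. With arrays permuted within week, the mean effect had an exact p of 0.005, the smallest of its 400 regroupings. A position of every DMM array below every sham array at both weeks was shared by 12.8% of miRNAs. Both weeks called 16 miRNAs lower, 3.65% of those tested. Among these 16, miR-210-3p had the smallest change at 1 week and the largest at 6 weeks, ahead of miR-1839-5p with -0.50 at 6 weeks.

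The change from 1 to 6 weeks was not resolved. The DMM effect at 6 weeks minus that at 1 week was -0.25, with a 95% confidence interval of -0.61 to 0.10 and a limma adjusted p of 0.999. In that comparison 0 of 438 miRNAs passed (0%), and 13 had an unadjusted p under 0.05. Sham cartilage at 6 weeks minus sham at 1 week was 0.19 (95% confidence interval -0.06 to 0.44, limma adjusted p = 0.385), where 0.228% of miRNAs passed. DMM cartilage at 6 weeks minus DMM at 1 week was -0.06 (95% confidence interval -0.31 to 0.19, limma adjusted p = 0.812), where 4.79% passed. Quantile normalization turned the sign of the difference in effect to 0.04 and that of the change between DMM groups to 0.11. From the highest level to the lowest, the cartilage groups ran sham at 6 weeks, sham at 1 week, DMM at 1 week, DMM at 6 weeks. The middle neighbours, sham and DMM at 1 week, differed past the threshold, and the other neighbours did not.

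In bone no effect of DMM on miR-210-3p was detectable at this spread. At 1 week means were 5.98 ± 0.57 (SD, n = 4) after sham and 6.02 ± 0.58 (SD, n = 4) after DMM. The log2 fold change was 0.04 ± 0.33 (SE), with a 95% confidence interval of -0.65 to 0.74 and a limma adjusted p of 0.999. At 6 weeks means were 5.77 ± 0.49 (SD, n = 4) and 5.60 ± 0.36 (SD, n = 4). The log2 fold change was -0.16 ± 0.33 (SE), with a 95% confidence interval of -0.86 to 0.53 and a limma adjusted p of 0.998. The mean over both weeks was -0.06, with an interval of -0.55 to 0.43. The interval of each week includes the cartilage effect of that week, and that of the mean includes the mean cartilage effect. Every DMM array was below every sham array for 0.612% of bone miRNAs at 1 week and 0.204% at 6 weeks. For miR-210-3p DMM was below sham in 9 of 16 pairs of mice at 1 week and in 10 of 16 at 6 weeks. Two-sided exact permutation tests gave p = 0.971 and p = 0.629, where the smallest possible p was 0.0286.

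Calls were absent across bone. By limma 0 of 490 miRNAs passed at either week (0%), and 3 and 2 had an unadjusted p under 0.05. With array weights, 38 and 54 passed. Under those weights the change of miR-210-3p was -0.37 at 1 week, and the mean over both weeks was -0.39 with a limma adjusted p of 0.038. The direction at 1 week also turned without sham replicate 1 (-0.19), sham replicate 3 (-0.01) or DMM replicate 1 (-0.24). The bone groups ran, from high to low, DMM at 1 week, sham at 1 week, sham at 6 weeks, DMM at 6 weeks, and no neighbours differed past the threshold. From 1 to 6 weeks the change was -0.21 in sham and -0.42 in DMM bone (limma adjusted p = 0.736 and 0.522).

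The difference between tissues was tested directly. The DMM effect in cartilage minus that in bone was -0.38 at 1 week, with a 95% confidence interval of -1.23 to 0.47 and a limma adjusted p of 0.854. At 6 weeks it was -0.42, with an interval of -1.27 to 0.43 and a limma adjusted p of 0.952. In these comparisons 0.279% and 0.557% of 359 miRNAs passed. The fall in cartilage was therefore not shown to differ from the effect in bone. Within this fit of all 28 arrays, which shares 1 estimate of spread between pools and single mice, the cartilage effects had adjusted p of 0.644 and 0.363.

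**Figure D3:**
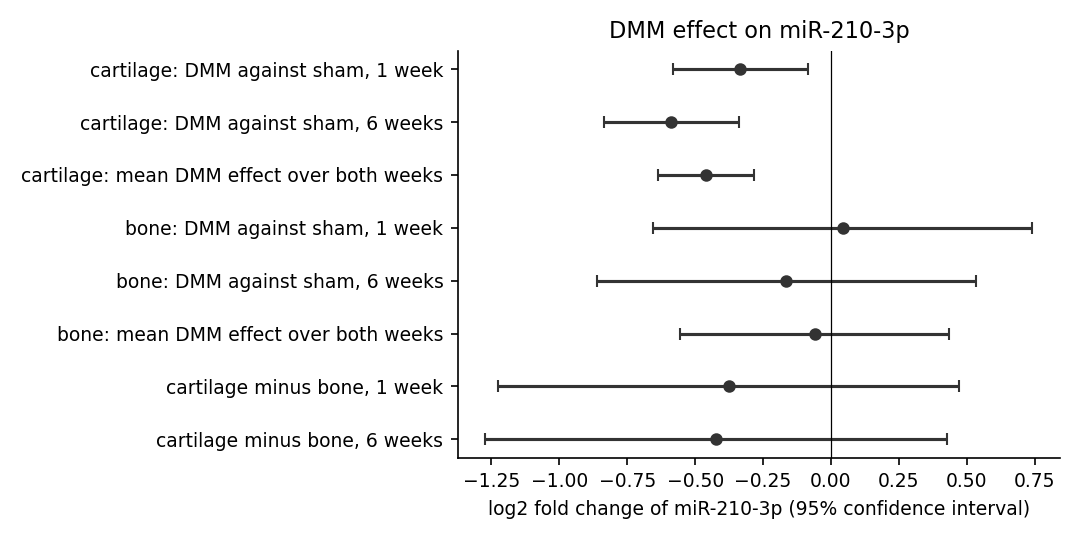
Log2 fold changes of miR-210-3p are plotted with their 95% confidence intervals for DMM against sham in each tissue and week, for the mean over both weeks, and for the difference of the effect between tissues. The 3 cartilage intervals lie below 0, from -0.84 to -0.08 at their outer ends, and the bone and between-tissue intervals span 0.

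Other miRNAs tied to oxygen supply were followed in 3 lists. The first held 20 miRNAs reported as raised in hypoxic cultured cells, mostly human, miR-210-3p among them. In cartilage 18 were measured. At 1 week 0 were higher and 3 lower, and 8 had an unadjusted p under 0.05. Their median change was -0.31, against -0.02 for all rows, and 16 changes were negative. At 6 weeks 0 were higher and 3 lower, 9 had an unadjusted p under 0.05, and the median was -0.23, against -0.04 for all rows, with 14 negative. The background shares are those given above, 12.1% and 7.31% lower. Of all 438 miRNAs, 183 had an unadjusted p under 0.05 by limma at 1 week and 167 at 6 weeks. By the mean over both weeks 2 were higher and 9 lower of the 18, where 21.2% of all miRNAs were higher and 24% lower. A median below that of all rows was not particular to this list. At 1 week the medians of the cell type lists ran from -0.75 (muscle) to 0.09 (endothelial), with -0.34 for the cartilage-enriched list. The muscle list was mixed, with 3 of 4 changes negative and not past the threshold. Its member miR-206-3p rose by 0.53 (limma adjusted p = 0.0107), where 15.8% of all miRNAs were called higher. The endothelial list had 1 measured member in cartilage.

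miR-26b-5p, which shares a seed with miR-26a-5p, was lower at both weeks. Its sham arrays read 9.22, 9.18 and 9.26 at 1 week, and its DMM arrays 9.06, 8.86 and 8.71. The change was -0.34 ± 0.10 (SE) at 1 week and -0.44 ± 0.10 (SE) at 6 weeks (limma adjusted p = 0.0253 and 0.013). All DMM pools were below all sham pools at both weeks, as for 12.8% of all miRNAs. miR-181c-5p was lower at 1 week, by -0.45 (limma adjusted p = 0.00809), and had -0.19 at 6 weeks (0.18). miR-21a-5p, often raised in inflamed or injured tissue as well, went the other way. It passed at neither week, with 0.80 at 1 week (limma adjusted p = 0.118) and 0.65 at 6 weeks (0.211), and passed by the mean over both weeks, with 0.72 (limma adjusted p = 0.038). The other member higher by that mean was miR-155-5p, a miRNA of activated immune cells, with 0.18 (limma adjusted p = 0.0424).

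miR-107-3p belongs to the same list and, in human cells, is reported to target the mRNA of ARNT, the partner subunit of HIF. It differs from its relative miR-103-3p by a single base, C22G, counted from the 5′ end of miR-107-3p, and the sequences are shown because array probes may not separate them fully. miR-107-3p comes from chr19:34820700-34820722 (minus strand) and miR-103-3p from hairpins on chromosomes 2 and 11. Capitals mark the shared seed.
miR-107-3p: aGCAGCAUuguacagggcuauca
miR-103-3p: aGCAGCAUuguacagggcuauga
At 6 weeks miR-107-3p read 9.18, 9.34 and 9.16 in sham and 8.46, 8.53 and 8.83 in DMM cartilage. Every DMM array was below every sham array, as for 18% of all miRNAs. The change was -0.62 ± 0.11 (SE) with a limma adjusted p of 0.00643. At 1 week it was -0.28 with a limma adjusted p of 0.0843, which did not pass. miR-103-3p passed at neither week, with -0.20 (limma adjusted p = 0.213) and -0.26 (0.12).

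The second list held 11 miRNAs reported as lowered in hypoxic cells, of which 9 were measured in cartilage. At 1 week 0 passed by limma, with 3 at an unadjusted p under 0.05 and a median of -0.24. At 6 weeks 1 was lower and 0 higher, a share near the 7.31% lower among all miRNAs. Of the 9, 2 had an unadjusted p under 0.05, and the median was -0.25. Among all 438 miRNAs such a p by limma was found for 183 at 1 week and 167 at 6 weeks. By the mean over both weeks 3 of the 9 were lower and 0 higher, where 24% of all miRNAs were lower and 21.2% higher. The member that passed at 6 weeks was miR-15b-5p, of the miR-15/16 family that restrains cell cycle genes, with -0.54 (limma adjusted p = 0.0118). miR-199a-5p, which in rat heart cells is lowered by hypoxia and targets Hif1a mRNA, had -0.23 and -0.19 and did not pass. The medians of both lists were negative at both weeks, and a response to low oxygen was not tested.

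The third list held 13 miRNAs reported to target mRNAs of the HIF pathway, and 9 were measured in cartilage. miR-31-5p, which in human cells lowers the HIF-inhibiting hydroxylase FIH, rose at both weeks. It read 6.26, 5.67 and 6.12 in sham and 7.33, 6.57 and 6.81 in DMM cartilage at 1 week. The groups were apart, and the share of all miRNAs apart in this direction was not counted. The change was 0.89 ± 0.21 (SE) at 1 week and 0.85 ± 0.21 (SE) at 6 weeks (limma adjusted p = 0.0101 and 0.0183). Calls in the higher direction covered 15.8% and 9.59% of all miRNAs. Of the other 8 members none passed at 1 week, and miR-107-3p alone passed at 6 weeks. The list medians were -0.05 and -0.26. By the mean over both weeks 2 of the 9 members were higher and 2 lower, near the 21.2% and 24% of all miRNAs. In bone the 3 lists had 19, 10 and 11 measured members, and by limma 0 of them passed at either week, with 0 at an unadjusted p under 0.05.

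**Figure D4:**
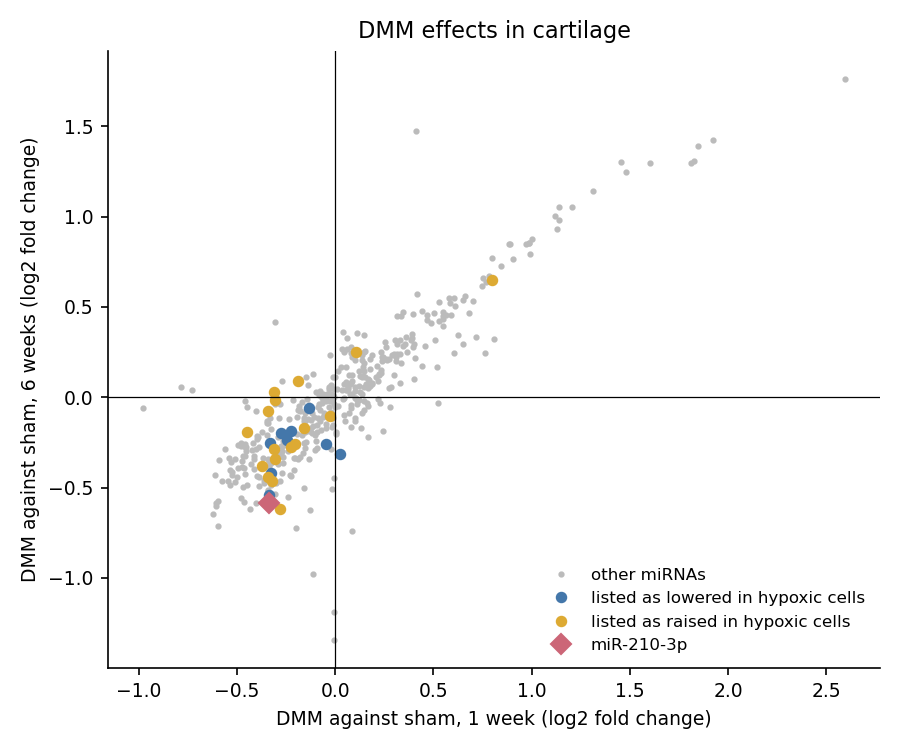
Each point is 1 of 438 miRNAs in cartilage, placed by its log2 fold change of DMM against sham at 1 week (horizontal) and at 6 weeks (vertical), with the members of both hypoxia lists coloured. miR-210-3p lies at -0.33 and -0.59, with 11 miRNAs below it at 6 weeks, and most listed members of either kind lie at negative values on both axes.

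Few miRNAs fell further than miR-210-3p at 6 weeks. Past the threshold there were 5, the red-cell miRNA miR-451a (-1.34), the myeloid miRNA miR-223-3p (-1.19), miR-129-2-3p (-0.62), miR-434-3p (-0.62) and miR-107-3p (-0.62). At 1 week 50 did so. The 10 largest falls among them ran from -0.61 for miR-6954-5p to -0.53 for miR-379-3p. They included miR-196b-5p (-0.59), which comes from a Hox cluster, and miR-30c-5p (-0.54). miR-411-3p (-0.58), miR-299b-5p (-0.53), miR-376c-3p (-0.53) and miR-379-3p come from the imprinted Dlk1-Dio3 cluster. The remaining 3 were miR-374c-5p (-0.56), miR-466i-3p (-0.54) and miR-466f-3p (-0.53).

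The averages of the measured blood cell miRNAs were lower after DMM than after sham in cartilage at 6 weeks. The 2 measured erythroid members averaged 7.09 to 8.18 on the sham arrays and 6.53 to 6.96 on the DMM arrays of that week, and both were called lower. The 3 measured leukocyte members averaged 6.88 to 8.02 and 6.29 to 6.78, and 2 were called lower, where 7.31% of all miRNAs were called lower. All DMM pools were below all sham pools for miR-486a-5p and miR-342-3p, as for 18% of all miRNAs. For miR-451a, miR-223-3p and miR-142a-3p the groups overlapped. Sham at 6 weeks was the highest cartilage group of both lists. Its means were 7.66 (erythroid) and 7.46 (leukocyte), against 6.54 to 6.74 and 6.54 to 6.77 in the other cartilage groups. At 1 week the ranges overlapped, at 6.31 to 6.86 and 6.37 to 6.75 for erythroid and 6.45 to 6.95 and 6.42 to 6.83 for leukocyte members, and 0 were called by limma, with 0 and 1 at an unadjusted p under 0.05. In bone, the tissue with the lower miR-210-3p, the 5 measured leukocyte members averaged 8.48 to 10.00. Their part in the fall of miR-210-3p was not tested. The cartilage-enriched list had a median change of -0.34 at 1 week with 1 of 4 lower (12.1% of all miRNAs), and -0.19 at 6 weeks with 0 of 4 past the threshold by limma and 1 at an unadjusted p under 0.05.

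Which miRNAs shared the array-to-array pattern was described by Pearson's r. Over the 12 cartilage arrays, where the difference between sham and DMM enters r, the 5 most alike of 327 miRNAs were miR-148a-3p (0.868), miR-152-3p (0.859), miR-26b-5p (0.857), miR-136-5p (0.845) and miR-26a-5p (0.842). miR-148a-3p and miR-152-3p belong to 1 seed family, as do the 2 members of the miR-26 family. The most opposed were miR-7018-5p (-0.897), miR-672-5p (-0.879) and miR-32-3p (-0.877). As deviations from group means, which leave operation and week out, the 5 most alike were miR-181a-5p (0.866), miR-3473a (0.853), miR-5130 (0.840), miR-3473b (0.837) and miR-3473e (0.830). The most opposed were then miR-6926-5p (-0.825), miR-204-5p (-0.797) and miR-1971 (-0.794). The 2 rankings had none of these names in common. miR-107-3p had r = 0.790 over all cartilage arrays and -0.288 as deviations.

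In bone the names were the same by either measure for 4 of 5. Over all 16 arrays the most alike of 366 miRNAs were miR-196b-5p (0.932), miR-193a-3p (0.931), miR-532-5p (0.924), miR-22-3p (0.906) and miR-34a-5p (0.906). As deviations they were miR-193a-3p (0.95), miR-196b-5p (0.938), miR-532-5p (0.936), miR-152-3p (0.923) and miR-22-3p (0.920). The most opposed were miR-7040-5p (-0.865), miR-3960 (-0.863) and miR-7011-5p (-0.854) over all arrays, and miR-32-3p (-0.877), miR-669n (-0.871) and miR-3960 (-0.856) as deviations. High values were common there. As deviations, 24.95% of 489 bone miRNAs had r above 0.7 with miR-210-3p, against 6.865% of 437 in cartilage. Array scores on component 1 of the bone deviations had r = 0.875 with miR-210-3p in bone and -0.329 in cartilage.

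Marker lists were set against miR-210-3p in the same way, as deviations from group means, in 12 relations over 6 lists and 2 tissues. In bone the list of fibroblast and osteoblast-lineage miRNAs (miR-199a, miR-214, miR-143 and miR-145a) followed it most closely. Pearson's r was 0.885 and Spearman's rho 0.879 over 16 arrays. The permutation p was 1e-05, the smallest that the resamples can give, and 0.00012 after Benjamini-Hochberg adjustment, and for rho it was 6e-05 (adjusted 0.00072). Without the 2 arrays farthest from the median of the list, r was 0.798. For the cartilage-enriched list r was 0.832 and rho 0.756 (adjusted permutation p = 0.0002 and 0.00366), with 0.732 without the 2 farthest. For the endothelial list r was 0.800 and rho 0.806 (adjusted permutation p = 0.0002 and 0.00148), with 0.783 without them.

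The only muscle miRNA measured in bone was miR-206-3p, the member that rose in DMM cartilage, and it ran opposite. It had r = -0.734 and rho = -0.794 (adjusted permutation p = 0.0039 and 0.00148), and r = -0.685 without the 2 farthest arrays. The leukocyte list had r = 0.624 (adjusted permutation p = 0.0203) but rho = 0.500 (0.12), and r fell to 0.395 without the 2 farthest arrays, so that relation rests on them. The erythroid list did not pass (r = 0.505, rho = 0.435, adjusted permutation p = 0.0915 and 0.183). In cartilage none of the 6 lists passed over 12 arrays. The endothelial miRNA had the highest r there, 0.500 with rho 0.441 (adjusted permutation p = 0.168 and 0.265), and the cartilage-enriched list had -0.225 with rho -0.217 (0.518 and 0.591). Removing group means makes these p-values somewhat too small. Since many other bone miRNAs had similar r with miR-210-3p, nothing particular to these lists is shown.

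**Figure D5:**
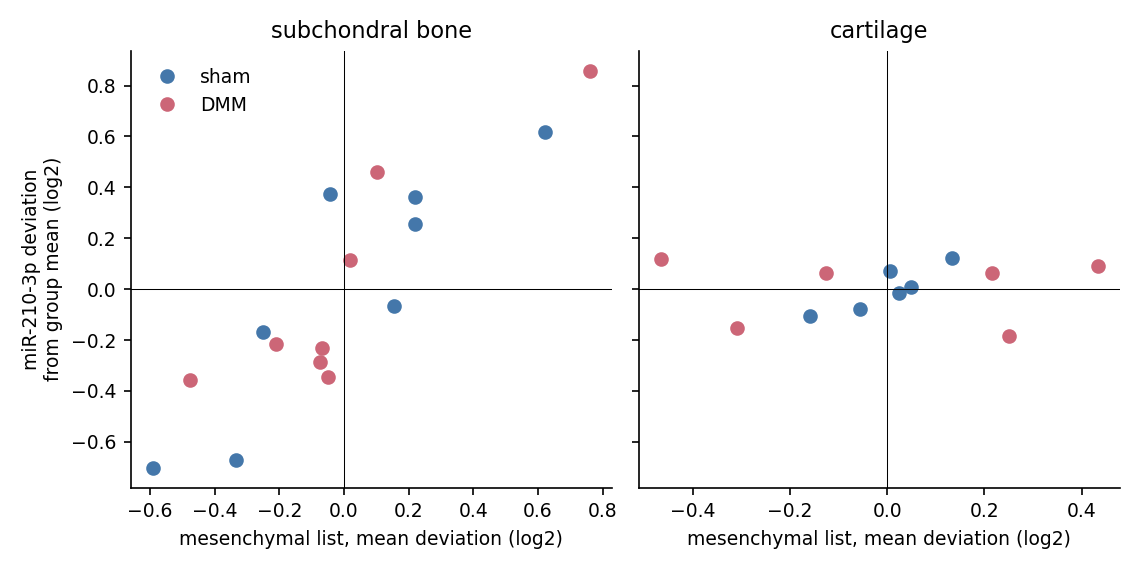
Deviations of miR-210-3p from its group mean (vertical, log2) are plotted against the mean deviation of the measured fibroblast and osteoblast-lineage miRNAs (horizontal, log2), 1 point per array, for bone (16 arrays) and cartilage (12). In bone the points rise together (r = 0.885), and in cartilage they do not (r = 0.102). The list had 5 measured members in bone and 3 in cartilage. The within-group SD of miR-210-3p was 0.507 in bone and 0.126 in cartilage.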

How the data were processed

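Small RNA (70 ng, Cyanine 3 label) was hybridised to Agilent mouse miRNA arrays, release 21, per the labels' protocols. The deposited values are log2 signals, judged by their range of 4.08 to 16.7, and were used as deposited by the authors. The submitters' processing notes name limma 3.20.9. No source used here gives the background correction, the normalization or the row filter, and no detection or slide information was used, so the number of arrays limits the precision. There were 0 unused columns of sample values.

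A group-means model per tissue was fitted over all complete rows with limma 3.58.1 in R 4.3.3, with empirical Bayes moderation and Benjamini-Hochberg adjustment over all miRNAs tested. The threshold was an adjusted p of 0.05, over 14 comparisons. The difference between tissues used all 28 arrays and treated them as independent. The fit was tested on simulated data. The spread behind the p-values is that of pools for cartilage and of single mice for bone. Correlations used 100000 permutations in scipy 1.17.1.

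The members and lists were chosen with earlier results of these data known. Named beside miR-210-3p were list members past the threshold in a DMM comparison at either week, miR-107-3p, miR-103-3p, miR-21a-5p and miR-199a-5p, the 5 miRNAs most alike and the 3 most opposed among those above the 25th percentile of level, and up to 10 called miRNAs with a larger fall. miRNAs of the tissue difference, miR-155-5p and miR-1839-5p were named after their values were seen. Replicate numbers in cartilage did not pair arrays, as the deviations of arrays with the same number correlated at -0.478 to 0.0326. Alternatives were other scalings, a level filter, another prior, array weights, blocks, a covariate, other sets of arrays and leaving out each array.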

Additional observations from a re-analysis of the deposited data

Results flagged for a closer look

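In bone 1 week after DMM, 1 of 4 mice had a log2 signal of 6.878 for miR-210-3p, far from the other 3 at 5.66 to 5.80. Its gap to the nearest of them was 0.885 of the group's range, above Dixon's 95% critical value of 0.829 for 4 values. The 4 bone groups were tested in this way, and chance flags about 1 in 20 groups. Without that mouse the DMM effect at 1 week in bone was -0.24 instead of 0.04, and neither passed the threshold (limma adjusted p = 0.963 and 0.999).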

How the results depend on the processing

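The fall in cartilage kept its sign under all 21 alternatives at each week, and passed under 8 of 21 at 1 week, 19 of 21 at 6 weeks and 18 of 20 for the mean. At 1 week it lost its call with dim rows left out, those below the median level (-0.334, limma adjusted p = 0.0636), a trend and robust prior (-0.334, 0.0574) and a replicate block (-0.334, 0.0939). The block left 93 calls of 122 at 1 week and 43 of 74 at 6 weeks, and changed no other call of miR-210-3p. With the bone component score as covariate the values were -0.513, -0.723 and -0.618 (adjusted p = 0.743, 0.453 and 0.631) and 0 miRNAs passed. In cartilage that score was 0.87 to 1.53 on sham and -4.15 to -2.66 on DMM arrays at 1 week. At 6 weeks it was 2.26 to 3.19 on sham and -1.8 to 1.51 on DMM arrays. Since the operations did not overlap in the score, that fit cannot separate the score from DMM in cartilage. In the fit of all 28 arrays the DMM effects were -0.334, -0.588 and -0.461 (limma adjusted p = 0.644, 0.363 and 0.157). Leaving out each array gave -0.379 to -0.257, -0.647 to -0.496 and -0.490 to -0.415. At 1 week 42 miRNAs passed without DMM replicate 3, 56 without sham replicate 3 and 54 with the dim rows left out. At 6 weeks it was 166, 27 and 31 without sham replicates 1, 2 and 3, 44 and 20 without DMM replicates 1 and 2, 40 with the level filter, 189 with array weights, 29 with both groups alone and 2 in the fit of all 28 arrays.

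Between weeks in cartilage, the difference in effect was -0.331 to -0.162 over arrays left out and 0.0407 after quantile normalization. DMM at 6 weeks minus 1 week was 0.112 after quantile normalization, 0.0141 after centring on the 75th percentile, 0.0511 with the covariate and -0.137 to 0.0312 over arrays left out, and the sham change 0.132 to 0.247.

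In bone array weights gave -0.373 at 1 week and -0.388 for the mean, the only alternative there with a call of miR-210-3p, and their estimation did not fully converge. They ran from 0.187 to 6.21 between arrays. The covariate turned the mean to 0.00744 and the sham change to 0.0698. Over arrays left out the ranges were -0.243 to 0.249 at 1 week, -0.388 to -0.0401 at 6 weeks, -0.204 to 0.0422 for the mean, -0.432 to 0.0784 for the difference between weeks, -0.444 to 0.0144 for sham and -0.571 to -0.131 for DMM at 6 weeks minus 1 week. Single arrays behind a turned sign gave -0.191, -0.0128, 0.0264, 0.00162, 0.0144 and 0.0422. Centring on the 75th percentile moved the median of all bone miRNAs at 1 week from -0.06 to 0.08, and miR-210-3p was 0.10 above that median either way. The level filter could not be run for bone, where miR-210-3p is below the median. The cartilage effect minus the bone effect was -0.582 to -0.0907 at 1 week and -0.547 to -0.199 at 6 weeks over arrays left out, and 0.057 with array weights at 1 week. The 12 marker relations kept their sign and call after centring on the 75th percentile. The cause of these changes was not tested.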
